A study of Mus musculus with 47 samples.

Results

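Expression of the genes for glutamate and GABA receptor subunits was examined in hypothalamus from 47 male Lep ob/ob mice, 1 RNA-seq library per mouse. A row of the deposited count table was taken where its gene symbol followed the naming of the AMPA (Gria), NMDA (Grin), kainate (Grik), delta (Grid) and metabotropic (Grm) glutamate receptors or of the GABA-A (Gabr) and GABA-B (Gabbr) receptors. This gave 41 genes of the 14221 in the table, taken by name with no cut on a measured value. The set itself was chosen with earlier results of these data known. They were 17 ionotropic glutamate receptor genes, 7 metabotropic glutamate receptor genes, 15 GABA-A genes and 2 GABA-B genes.

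All mice carried the ob/ob genotype, which removes leptin, and were 11 weeks old by their labels. Each received a single intracerebroventricular (icv) injection of either 3 µg FGF1, a fibroblast growth factor, or vehicle, and the vehicle mice were pair-fed to the intake of the FGF1 mice, so leptin deficiency and restricted intake were shared with the controls. Hypothalami were collected on Day 1 (10 FGF1, 4 vehicle), Day 5 (9 FGF1, 14 vehicle) or Day 42 (5 per group). Vehicle mice of Days 1 and 42 were labelled non-diabetic, and those of Day 5 were labelled non-diabetic (7 mice) or diabetic (7 mice). The labels did not say how this was assigned, and the FGF1 mice carried no such label. The extraction protocol names 7 vehicle mice for Day 5 where the labels give 14, so what sets the 2 vehicle groups of that day apart is not settled here.

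Fast excitation in the brain is carried by glutamate acting on AMPA, NMDA and kainate receptors, which are ion channels assembled from several subunits. Fast inhibition is carried by GABA acting on GABA-A receptors, chloride channels usually built from alpha, beta and gamma subunits, while metabotropic glutamate and GABA-B receptors act more slowly through G proteins. In the hypothalamus both transmitters set the firing of the neurons that control feeding and glucose, and the choice of subunits sets the speed, ion permeability and location of the receptors.

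Total counts per library ranged from 1243280 to 47082403 on Day 1, where FGF1 replicate 1 was by far the shallowest, from 7579695 to 30009258 on Day 5 and from 19416026 to 43934003 on Day 42. All libraries of a day shared 1 preparation code, so day and preparation cannot be told apart, and FGF1 was compared with vehicle within days. The 15 hypothalamic markers in the table were detected in all 47 libraries, with summed levels of 511 to 1900.3 normalised CPM (counts scaled to a common library size). Libraries that stood apart were FGF1 replicate 1 and vehicle replicate 2 of Day 1, and FGF1 replicate 5 (labelled Sample_11) and vehicle replicate 5 of Day 42. Several results that rest on them are also given without them. In bulk tissue, fewer cells of a type and less RNA per cell cannot be told apart.

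Levels per kilobase of merged exons, averaged over the 7 group means, placed Gabbr1, the gene of the GABA-binding subunit of the GABA-B receptor, first (116 CPM per kb) and Gria1, the gene of the AMPA subunit GluA1, next (90.6). Further down, the GABA-A alpha subunit gene Gabra3 stood at 43.2 and the AMPA subunit gene Gria2 at 40.8 CPM per kb. Lowest of the 41 was Gabrr2, a rho subunit (1.18 CPM per kb), below Grm8 (3.27) and Grm2 (3.33), presynaptic metabotropic receptors. Within the AMPA family Gria1 was the highest per kb in all 7 groups, and among NMDA subunits Grin1, the obligatory subunit, led in all 7 groups.

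**Figure D1:**
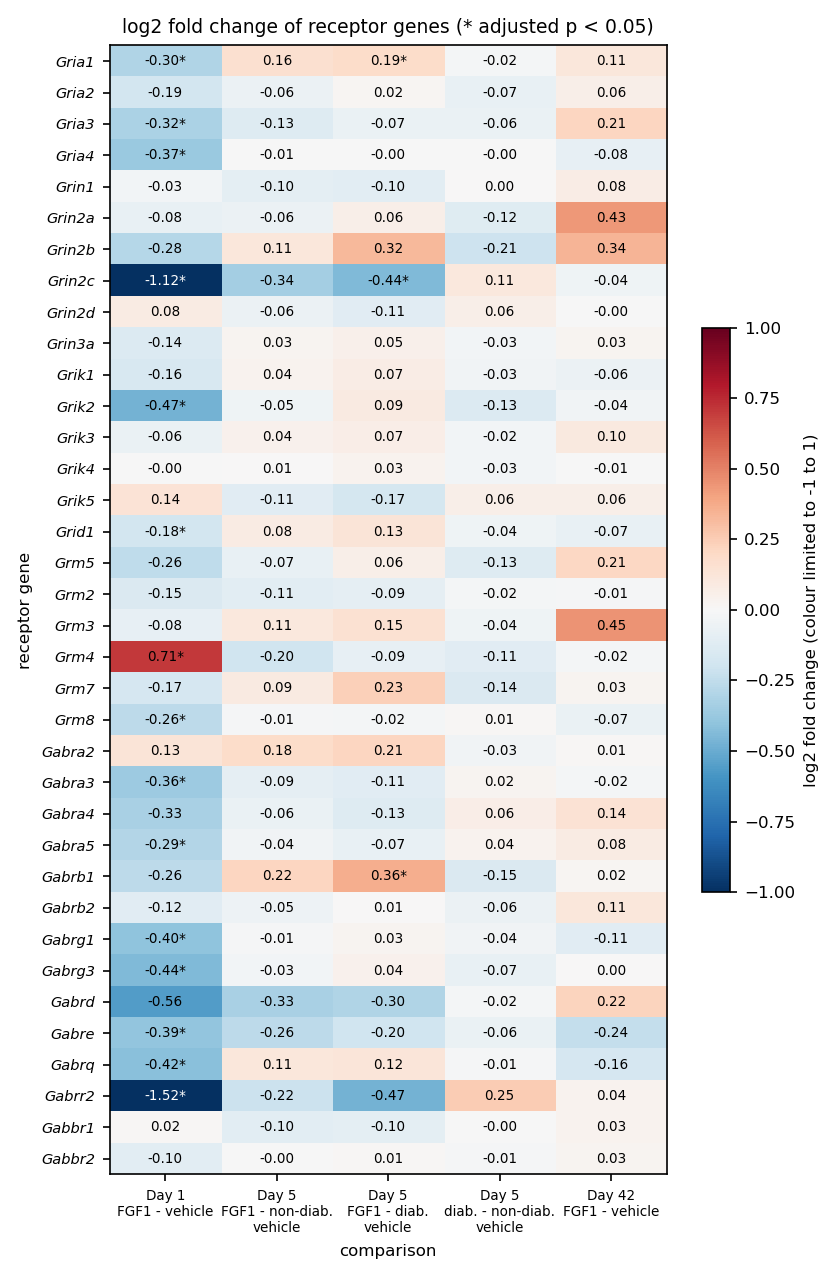
Log2 fold change of 36 receptor genes (vertical axis, ordered by receptor family) in 5 comparisons within a day (horizontal axis), printed in the cells and coloured from -1 to 1, with an asterisk where the edgeR adjusted p was under 0.05. The Day 1 column holds 15 asterisks, 14 of them on negative values, the column for FGF1 against the vehicle labelled diabetic on Day 5 holds 3, and the other columns hold none.

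To ask how receptor genes stood 1 day after icv FGF1, FGF1-treated and vehicle-treated mice of Day 1 were compared. Most receptor genes were lower after FGF1: 36 of 41 (87.8%) had a negative log2 fold change (log2 FC), against 49.0% of all genes, and the median of the 41 was -0.26 against 0.01 for all genes. At an adjusted p under 0.05 (edgeR quasi-likelihood test, Benjamini-Hochberg over all genes), 18 of 41 were lower, 43.9% of the members beside 21.6% of all genes, and 1 was higher, 2.44% beside 23.4% of all genes. With a threshold of 0.5 on the absolute log2 FC as well, 4 members passed (9.76%), fewer than the 19.5% of all genes: 3 were lower, among them Gabrr2 and Grin2c, and Grm4 was higher. Most of the falls were thus shallow, and 15 of the 18 lay between -0.47 and -0.18.

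Much of the count of shallow falls rested on 1 control mouse. Without vehicle replicate 2, 9 members passed as lower and none as higher (22.0%, beside 35.2% of all genes in either direction), and the median of the 41 was -0.20. Among these 9 were Gria1, Gria4, Grik2, Grid1, Grin2c, Gabrg3 and Gabrr2, and the same 9 passed in each of the 4 fits that left out 1 vehicle library. With libraries scaled to 19 pan-neuronal genes instead of to all genes, 10 members passed as lower and 1 as higher (26.8%, beside 40.1% of all genes). On that list itself, 4 of 19 genes were lower and 2 higher on Day 1 (median log2 FC -0.08). The part of neuronal content in the receptor gene result was not tested further.

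Among NMDA subunits, Grin2c fell and the other 5 did not pass. Grin2c encodes GluN2C, a subunit best known from the cerebellum, which gives NMDA receptors with weak magnesium block. Its levels were 28.3, 21.1, 27.7 and 33.6 CPM in the 4 vehicle mice, and in the 10 FGF1 mice the lowest was 9.40, the median 12.0 and the highest 17.3 CPM. The groups did not overlap, and every FGF1 mouse lay below every vehicle mouse. The log2 FC was -1.12 ± 0.15 (SE, edgeR adjusted p = 6.23e-08). Grin2c lies on the minus strand of chromosome 11 (115249169 to 115267243, GRCm38), and 91 bp of its exons overlap Gm25837 on the other strand. The start region is shown because Grin2c and Gabrr2 had the largest falls. It runs from 250 bases before to 50 bases after the RefSeq start (GRCm38.p6, chr11:115267194-115267493, minus strand), with CpG dinucleotides in capitals.
Grin2c: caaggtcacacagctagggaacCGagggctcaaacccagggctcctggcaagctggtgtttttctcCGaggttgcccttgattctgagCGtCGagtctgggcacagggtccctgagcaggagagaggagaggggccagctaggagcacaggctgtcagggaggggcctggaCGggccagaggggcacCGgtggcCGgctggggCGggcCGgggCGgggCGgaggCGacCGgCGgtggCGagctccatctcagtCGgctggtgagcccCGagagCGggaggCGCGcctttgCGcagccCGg

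For the obligatory subunit Grin1 the log2 FC was -0.03 ± 0.10, for Grin2a -0.08 ± 0.18, for Grin2d 0.08 ± 0.14 and for Grin3a -0.14 ± 0.10. Grin2b, which encodes GluN2B, a subunit of slow NMDA currents, had 125, 137, 112 and 134 CPM in the vehicle mice and 96.6 (lowest), 106 (median) and 111 CPM (highest) in the FGF1 mice. These groups also did not overlap, although the gap was under 1 CPM, and the model gave a log2 FC of -0.28 ± 0.14 that did not pass (edgeR adjusted p = 0.103). In all, 5 members had groups that did not overlap on Day 1 with FGF1 lower, among them Gabrr2, Gria1, Grin2b and Grin2c, 12.2% of the members beside 6.81% of all genes, and none had FGF1 higher throughout, beside 7.56% of all genes. For Gabrr2 this takes the 0 counts of FGF1 replicate 1, a shallow library, as a level of 0.

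Of the 4 AMPA subunits, which carry most fast excitation, 3 fell: Gria1 (log2 FC -0.30 ± 0.07, edgeR adjusted p = 0.000365), Gria3 (-0.32 ± 0.12, 0.0211) and Gria4 (-0.37 ± 0.09, 0.000608). Gria2, whose product makes AMPA receptors impermeable to calcium, had a log2 FC of -0.19 ± 0.11 and did not pass. Gria1 stood at 647, 729, 654 and 657 CPM in vehicle mice and at 511 (lowest), 533 (median) and 597 CPM (highest) in FGF1 mice, so all FGF1 mice were lower. Gria3 did not pass without vehicle replicate 2, as was also true of Gabra3, Gabra5, Gabre, Gabrg1, Gabrq and Grm8.

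Among delta receptors, Grid1, which encodes a relative of the glutamate-gated channels that organises synapses, fell (log2 FC -0.18 ± 0.05, edgeR adjusted p = 0.00271). Of the 5 kainate subunits, Grik2, the gene of GluK2, fell (-0.47 ± 0.10, adjusted p = 0.000217), and the log2 FC of Grik1, Grik3, Grik4 and Grik5 ranged from -0.16 to 0.14 without passing.

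Metabotropic glutamate receptors gave the rise on Day 1. Grm4 encodes a group III receptor that lowers transmitter release from nerve endings. It had 14.5, 8.13, 8.66 and 18.5 CPM in vehicle mice and 9.92 (lowest), 20.1 (median) and 29.8 CPM (highest) in FGF1 mice. The groups overlapped, with 7 of 10 FGF1 mice above all vehicle mice, and the log2 FC was 0.71 ± 0.24 (edgeR adjusted p = 0.0135). The call was lost without vehicle replicate 2 (edgeR adjusted p = 0.0888) or vehicle replicate 3 (0.0754). It was also lost with every library thinned to the lowest total, where no member passed as higher. In that fit 11 members passed as lower (26.8%, beside 21.2% of all genes in either direction). Grm8, of the same group, fell (-0.26 ± 0.11, adjusted p = 0.0388), but this passed in 1 of the 4 fits without a vehicle library. The group I gene Grm5 (-0.26), the group II genes Grm2 and Grm3 (-0.15 and -0.08) and Grm7 (-0.17) did not pass.

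**Figure D2:**
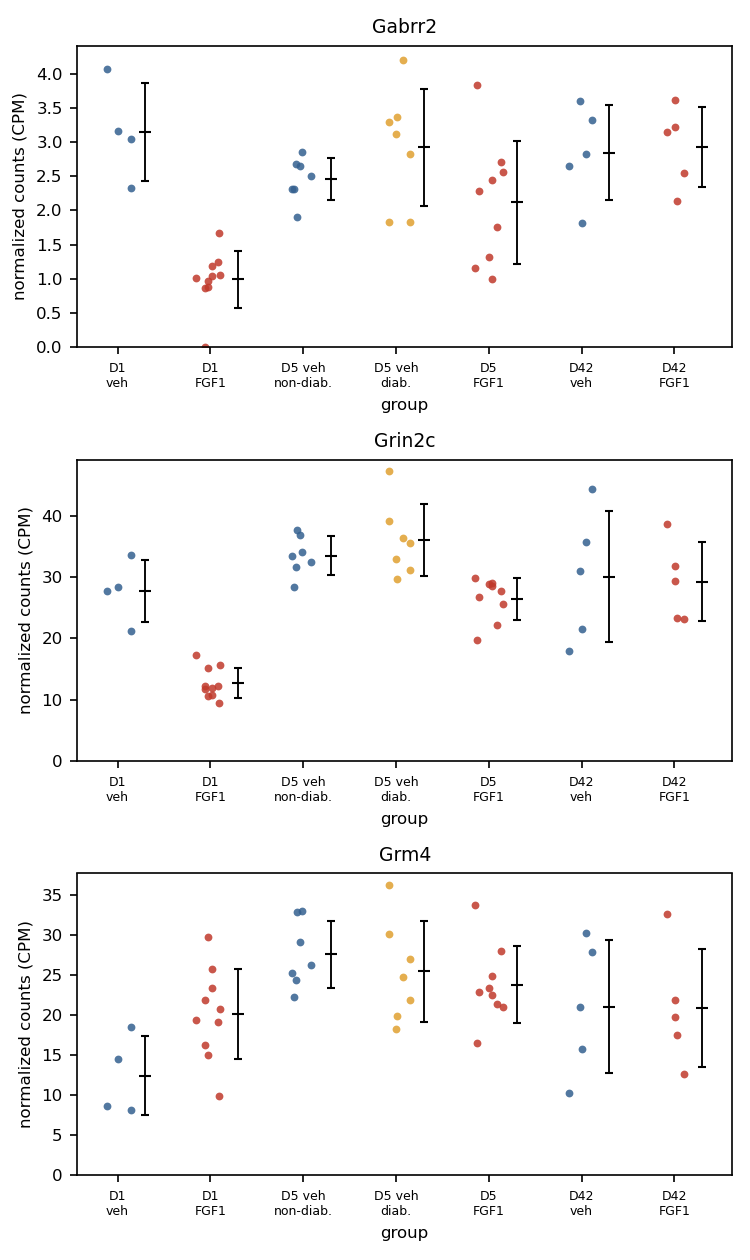
Normalised level (CPM, vertical axis from 0) of Gabrr2, Grin2c and Grm4 in every mouse of the 7 groups (horizontal axis, D1, D5 and D42 for the days), with bars for the mean ± SD. On Day 1 all FGF1 mice lie below all vehicle mice for Grin2c, and so do the points for Gabrr2, where 1 FGF1 mouse has 0 counts with a floor of 2.44 CPM, while the Grm4 groups overlap, and on Day 42 the groups overlap for all 3 genes.

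Of the GABA-A receptor genes, 10 of 15 passed as lower (beside 21.6% of all genes), none as higher, and the median log2 FC was -0.37. Without vehicle replicate 2, 3 of 15 passed as lower and the median was -0.24. The largest fall was that of Gabrr2, a rho subunit whose receptors are best known from the retina. Gabrr2 had 3.16, 3.05, 4.07 and 2.32 CPM in vehicle mice (85 to 175 counts). In FGF1 mice the median was 1.03 and the highest 1.67 CPM, and the lowest was 0 counts in replicate 1, where 3 counts would have been 2.44 CPM. The other 9 FGF1 libraries lay below every vehicle library, and replicate 1 cannot be placed against the lowest vehicle library at this depth. The log2 FC was -1.52 ± 0.21 (edgeR adjusted p = 8.84e-08), and -1.51 without that shallow library (adjusted p = 9.01e-08). With every library thinned to the lowest total it did not pass (-1.05, adjusted p = 0.188). Gabrr2 lies on chromosome 4 (33062999 to 33095865, plus strand, GRCm38), and its start region (RefSeq, GRCm38.p6, chr4:33062862-33063161, plus strand, CpG in capitals) is shown beside that of Grin2c.
Gabrr2: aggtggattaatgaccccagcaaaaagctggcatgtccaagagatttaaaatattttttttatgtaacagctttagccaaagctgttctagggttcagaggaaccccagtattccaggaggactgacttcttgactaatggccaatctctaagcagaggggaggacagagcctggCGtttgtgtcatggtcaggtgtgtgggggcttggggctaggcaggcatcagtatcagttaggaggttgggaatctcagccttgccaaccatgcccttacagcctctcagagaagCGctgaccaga

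The 2 start regions had little in common in composition. That of Gabrr2 was 49.3% G and C with 2 CpG, and that of Grin2c was 70.0% with 22 CpG, beside medians of 52.7% and 7 over all promoters of that length. Neither held the motifs searched on both strands, TGANTCA (AP-1), TGACGTCA (CRE), GCGGGGGCG (EGR) or CCGGAAGT (ETS). Promoters were given for 26 of the 41 genes. Among them Grm8 held an AP-1 match (7.81% of 32851 promoters did) and Grin1 and Grm3 an EGR match (2.91%), while CRE (1.79%) and ETS (3.89%) matched none.

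Among gamma subunit genes, whose products help place receptors at synapses, Gabrg3 fell by 0.44 ± 0.11 on the log2 scale (edgeR adjusted p = 0.00134) and Gabrg1 by 0.40 ± 0.14 (0.0169). The epsilon gene Gabre (-0.39 ± 0.14) and the theta gene Gabrq (-0.42 ± 0.16), subunits known for hypothalamic expression, fell as well. Gabre and Gabrq each passed in 2 of the 4 fits that left out a vehicle library. For Gabrd, the delta subunit of receptors outside synapses, counts were few (0 in FGF1 replicate 1) and the log2 FC of -0.56 ± 0.53 did not pass. Among alpha genes Gabra3 and Gabra5 fell by 0.36 and 0.29 on the log2 scale. Gabra2 (0.13), Gabra4 (-0.33), Gabrb1 (-0.26) and Gabrb2 (-0.12) did not pass.

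GABA-A genes lie in clusters, of which 2 are reported here. All 3 members of the X chromosome cluster (Gabre, Gabra3 and Gabrq, 72255999 to 72842602, GRCm38) passed as lower, while in the chromosome 5 cluster (70751047 to 72149037) Gabrg1 passed and Gabra2, Gabra4 and Gabrb1 did not. Without vehicle replicate 2 none of these 7 genes passed. GABA-B genes stood apart from this: Gabbr1 had a log2 FC of 0.02 ± 0.05 and Gabbr2 of -0.10 ± 0.12. The summed GABA-A level was 1882 to 2641 CPM in vehicle mice and 1301 to 1938 CPM in FGF1 mice, and the highest of all, vehicle replicate 2, stood well above the other 3 vehicle mice.

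Partners of the receptors did not share 1 direction on Day 1. Of 52 related genes, 11 were higher and 11 lower at an adjusted p under 0.05, 21.2% each way, near the 23.4% and 21.6% of all genes. Among 8 inhibitory anchors 5 were lower, including Gphn, the gene of gephyrin (log2 FC -0.20 ± 0.06, edgeR adjusted p = 0.00846), which holds GABA-A receptors at synapses, and none was higher. Among 14 auxiliary subunits of AMPA and kainate receptors 5 were higher and 2 lower. The largest rise was that of Shisa6 (1.32 ± 0.22, adjusted p = 4e-06), and Cacng8, which encodes a TARP, rose by 0.66 ± 0.18 (0.00272). In the excitatory scaffold 6 of 22 genes were higher, among them Shank3 (0.71 ± 0.19, adjusted p = 0.00194) and Dlg4, the gene of PSD-95 (0.31 ± 0.12), and 2 were lower, among them Nlgn1 (-0.50 ± 0.11). Kctd12b, a GABA-B auxiliary subunit gene, was lower (-0.57 ± 0.13, adjusted p = 0.000298), and none of 4 glycine receptor genes passed.

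Markers of other cells moved with treatment on the same day. The summed oligodendrocyte level was 3568 to 5225 CPM in vehicle mice and 2241 to 4064 CPM in FGF1 mice, with 5 of 6 markers lower. Microglial markers went the other way, with 4 of 5 higher and 1 lower, and summed levels of 99.8 to 121 CPM in vehicle mice and 122 to 171 CPM in FGF1 mice. Of 8 astrocyte markers 5 were lower and 2 higher (median log2 FC -0.36), although their sum ran from 4399 to 5128 CPM in vehicle mice and from 4739 to 5837 CPM in FGF1 mice. Summed pan-neuronal levels were 8449 to 9749 CPM in vehicle mice and 7185 to 8889 CPM in FGF1 mice, and those of hypothalamic markers 1438 to 1900.3 CPM and 1022 to 1492 CPM. Since Grin2c is best known from the cerebellum, the 2 cerebellar granule cell markers in the table (Neurod1 and Zic1) were also summed, giving 39.6 to 51.5 CPM in vehicle mice and 25.7 to 48.3 CPM in FGF1 mice, and neither passed. The part of these shifts in the receptor gene results was not tested.

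On Day 5 no receptor gene passed both thresholds in either comparison. Against the vehicle mice labelled non-diabetic, none of the 41 had an adjusted p under 0.05 (lowest edgeR adjusted p = 0.113), beside 4.65% of all genes, or 1.54% with the fold threshold. At an unadjusted p under 0.05 there were 3 members, 7.32% beside 16.5% of all genes. Against the vehicle mice labelled diabetic, 3 members had an adjusted p under 0.05, 7.32% beside 9.21% of all genes, and none passed the fold threshold as well, beside 2.85%. These comparisons share the FGF1 mice, so their values are given side by side. The vehicle groups themselves gave no member at an adjusted p under 0.05 in edgeR or with DESeq2 and no gene of the table in edgeR, and 0 members but 193 genes (1.36%) at an unadjusted p under 0.05 in edgeR. The members with the smallest p there were Grm7, a presynaptic group III receptor gene (102.7 to 149.8 CPM in mice labelled diabetic, 122 to 149 CPM in those labelled non-diabetic), Grin2b (243 to 383 against 314 to 446 CPM), Grik2 (196 to 269.6 against 225 to 279 CPM) and Gabrb1. Their log2 differences lay between -0.21 and -0.13, and the groups overlapped for each.

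Gria1 was higher in FGF1 mice than in mice labelled diabetic on Day 5. The lowest, median and highest values were 395, 490.5 and 497 CPM in mice labelled non-diabetic, 399.9, 477 and 513 CPM in those labelled diabetic, and 480.5, 541 and 569 CPM in FGF1 mice. Of the 9 FGF1 mice, 8 lay above every mouse of either vehicle group. The log2 FC was 0.16 ± 0.06 against the former (edgeR adjusted p = 0.113) and 0.19 ± 0.06 against the latter (adjusted p = 0.0377).

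Gabrb1, which encodes a beta subunit, was also higher in that comparison. Its lowest, median and highest values were 348, 404 and 455 CPM in mice labelled non-diabetic, 313, 381 and 417 CPM in those labelled diabetic and 436, 483 and 529.6 CPM in FGF1 mice. FGF1 mice lay above all mice labelled diabetic and overlapped those labelled non-diabetic. The log2 FC was 0.36 ± 0.11 (edgeR adjusted p = 0.0282) and 0.22 ± 0.11 (0.325) respectively. A count of 1 member with groups apart is 2.44%, beside 3.63% of all genes.

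Grin2c was lower in FGF1 mice than in mice labelled diabetic on Day 5, with 29.6, 35.6 and 47.3 CPM (lowest, median and highest) in mice labelled diabetic, 28.3, 33.4 and 37.7 CPM in mice labelled non-diabetic and 19.7, 27.8 and 29.9 CPM in FGF1 mice. The ranges overlapped narrowly. The log2 FC was -0.44 ± 0.14 against mice labelled diabetic (edgeR adjusted p = 0.0346) and -0.34 ± 0.14 against those labelled non-diabetic (0.189). Gabbr1 had 897 to 967 CPM in mice labelled non-diabetic (median 932) and 793 to 901 CPM in FGF1 mice (median 885), a log2 FC of -0.10 ± 0.05 that did not pass in edgeR (adjusted p = 0.237). Grid1 was the member with all FGF1 mice above all mice labelled non-diabetic, 2.44% beside 2.38% of all genes, at 108 to 113 CPM against 96.8 to 108 CPM (log2 FC 0.08 ± 0.04).

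The Day 5 calls depended on which libraries entered the fit. The median within-group SD of log2 CPM was 0.11 in Day 5 FGF1 mice and 0.24 in Day 42 vehicle mice. With the Day 5 libraries alone, 4 members were higher than in mice labelled non-diabetic (Gabra2, Gabrb1, Gria1 and Grid1) and 5 lower (among them Gabbr1, Gria3, Grin1 and Grin2c), with absolute log2 FC of at most 0.32. Against mice labelled diabetic that fit gave 7 higher and 4 lower. These were 22.0% and 26.8% of the members, beside 20.9% and 30.8% of all genes in that fit. Gabrb1 and Gria1 lost their calls against mice labelled diabetic without the 2 deepest FGF1 libraries (edgeR adjusted p = 0.0689 and 0.0699). With both vehicle groups merged, Gabrb1, Gria1 and Grin2c had an adjusted p under 0.05 (log2 FC 0.29, 0.17 and -0.39). They were 7.32% of the members, beside 12.0% of all genes in that fit. Against mice labelled diabetic, Gabrb1 passed in 7 of 9 alternatives, Gria1 in 5 and Grin2c in 8. With every library thinned to the lowest total no member had an adjusted p under 0.05 there (lowest edgeR adjusted p = 0.0627, beside 2.05% of all genes passing). The quantile-normalised fit with limma called Gabrr2 as lower than in mice labelled diabetic (2.44% of the members, beside 4.50% of all genes). Markers of glia were higher in FGF1 mice on Day 5, and their part in these values was not tested. Against mice labelled diabetic 4 of 6 oligodendrocyte, 4 of 8 astrocyte and 4 of 5 microglial markers passed as higher, and against mice labelled non-diabetic 3, 4 and 3 did, with none lower. Their summed levels in FGF1 mice were 6018 to 6899.5, 5246 to 5771 and 187 to 227 CPM, against 4430 to 5871, 4611 to 4799.7 and 141 to 227 CPM in mice labelled non-diabetic.

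Ratios of 2 receptor genes within a library, which do not depend on library size, were compared for 6 pairs in 5 comparisons (30 exact permutation tests, adjusted together), of which 4 pairs are reported here. The Gria1 to Gria2 ratio bears on how many AMPA receptors lack the calcium-blocking subunit, as far as mRNA shows. On Day 5 it was 0.542 to 0.622 in mice labelled non-diabetic, 0.560 to 0.650 in mice labelled diabetic and 0.626 to 0.709 in FGF1 mice. FGF1 mice were thus all above the former and overlapped the latter. The log2 difference was 0.22 against the former (exact p = 0.000175, the smallest that 9 against 7 mice allow, adjusted 0.00263) and 0.17 against the latter (adjusted 0.00419). On Day 1 it was -0.11 (exact p = 0.358) and on Day 42 0.04 (exact p = 0.675).

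The ratio of Grin2a to Grin2b, which shifts as NMDA receptors mature, was lower in FGF1 mice on Day 5 (0.263 to 0.330) than in mice labelled diabetic (0.326 to 0.390, log2 difference -0.26, exact permutation, adjusted p = 0.00393). Against mice labelled non-diabetic (0.279 to 0.387) the difference of -0.18 did not pass after adjustment (0.063). No ratio of Gabbr1 to Gabbr2 or Grm5 to Grm3 passed in any comparison, the lowest adjusted p being 0.0561 for Grm5 to Grm3 on Day 5 against mice labelled non-diabetic.

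**Figure D3:**
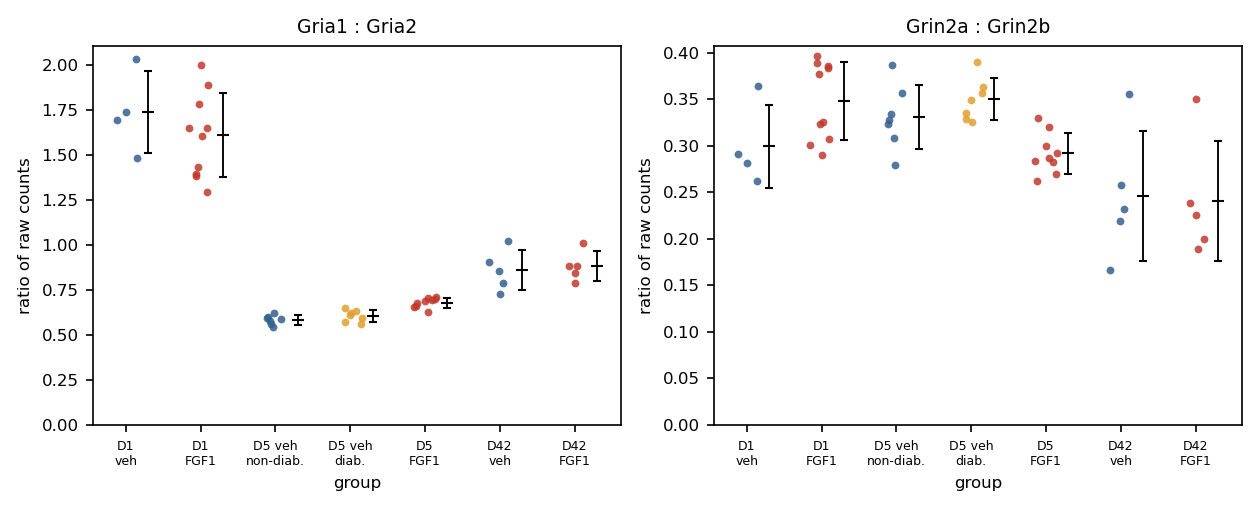
Ratio of raw counts of Gria1 to Gria2 and of Grin2a to Grin2b (vertical axes from 0) in every mouse of the 7 groups (horizontal axis), with bars for the mean ± SD. On Day 5 all FGF1 mice lie above all vehicle mice labelled non-diabetic for Gria1 to Gria2, the Grin2a to Grin2b groups overlap, and on Day 42 the groups overlap in both.

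The FGF1 effect itself was compared between Day 1 and Day 5 as a difference of the log2 FC, with non-diabetic-labelled vehicle mice as controls on each day. At an adjusted p under 0.05, 10 members had a higher effect on Day 5 (24.4%, beside 12.4% of all genes) and 1 a lower one (2.44%, beside 14.2%). With the fold threshold 4 passed, 9.76% beside 15.8% of all genes, and these were the genes called on Day 1. The difference was 1.31 ± 0.31 for Gabrr2 (edgeR adjusted p = 0.00112), 0.78 ± 0.21 for Grin2c (0.00408) and -0.91 ± 0.31 for Grm4 (0.0253). Among the other 7 were Gria1, Gria4, Grid1, Grik2, Gabrb1 and Gabrg3, with differences of 0.26 to 0.48. Without vehicle replicate 2 of Day 1, 5 passed at an adjusted p under 0.05 (among them Gabrr2, Gria1, Grid1 and Grin2c) and none was lower, 12.2% beside 20.4% of all genes. With quantile normalisation and limma the Gabrr2 difference was 0.36 (adjusted p = 0.682). Between Day 5 and Day 42 the effect differed for none of the 41 in edgeR at an adjusted p under 0.05, beside 0.942% of all genes (0.717% with the fold threshold), for none with DESeq2, and for 4 members at an unadjusted p under 0.05 in edgeR (9.76%, beside 9.98% of all genes). These were Grin2a (difference 0.50 ± 0.24), Gria3 (0.34 ± 0.16), Grm3 (0.34 ± 0.16) and Grid1 (-0.16 ± 0.07). The count was 1 without Sample_11 (2.44%, beside 7.42% of all genes). Without vehicle replicate 5 of Day 42 it was 4 (9.76%, beside 13.2% of all genes).

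On Day 42 no receptor gene differed between FGF1 and vehicle at an adjusted p under 0.05, in edgeR or with DESeq2, and neither did any of the 14221 genes in edgeR. At an unadjusted p under 0.05 in edgeR there were 3 members (7.32%, beside 5.46% of all genes), Grm3, Grin2a and Grin2b, all higher. Grm3 encodes a group II receptor found on neurons and astrocytes. Its levels were 30.9, 41.8, 33.7, 41.7 and 24.7 CPM in vehicle mice and 40.6, 49.6, 33.1, 54.1 and 59.0 CPM in FGF1 mice, of which 3 lay above all vehicle mice. The log2 FC was 0.45 ± 0.12 (edgeR p = 0.000791, adjusted p = 0.332).

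Sample_11 (FGF1 replicate 5 of Day 42) was the highest of the FGF1 mice for each of these 3 genes. Grin2a, the gene of GluN2A, had 82.0, 58.0, 50.5, 91.5 and 55.3 CPM in vehicle mice and 59.7, 79.1, 49.99, 96.7 and 172 CPM in FGF1 mice, the last value being Sample_11. Grin2b had 319, 264, 304, 394 and 155 CPM in vehicle mice and 315, 332, 249.6, 429 and 491 CPM in FGF1 mice. Apart from Sample_11 the FGF1 values of Grin2a ran from 49.99 to 96.7 CPM, close to the vehicle range of 50.5 to 91.5 CPM. The log2 FC moved from 0.43 to 0.08 for Grin2a and from 0.34 to 0.21 for Grin2b without it, and from 0.45 to 0.36 for Grm3. Exact permutation p without it was 0.762 for Grin2a, 0.444 for Grin2b and 0.159 for Grm3, and with it 0.381, 0.23 and 0.0794. Gria3, next in rank, went from 0.21 to 0.06.

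**Figure D4:**
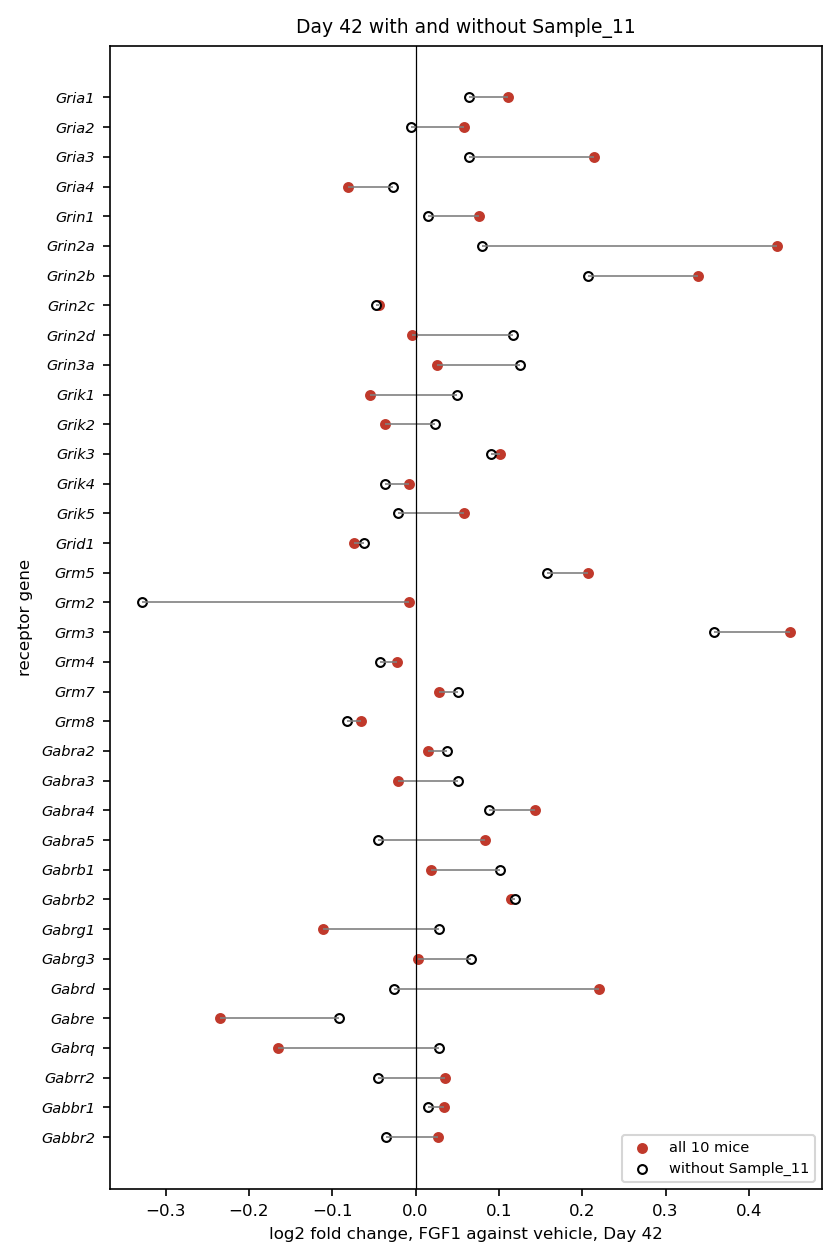
Log2 fold change of FGF1 against vehicle on Day 42 (horizontal axis) for 36 receptor genes (vertical axis) from all 10 mice (filled) and without Sample_11 (open), joined by a line. The longest lines are those of Grin2a, which moves from 0.43 to 0.08, and Grm2, which moves from -0.01 to -0.33.

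Over the whole set, leaving out Sample_11 brought 24 of the 41 log2 FC nearer to 0, turned the sign of 14 and moved 13 by over 0.1, and 1 member instead of 3 then had an unadjusted p under 0.05 in edgeR (Grm3, p = 0.00728), 2.44% beside 2.24% of all genes. Grm2, a presynaptic group II receptor gene, moved from -0.01 to -0.33 and Gabrd from 0.22 to -0.03. This library was the highest of the 10 for 11 members and the lowest for 6 (and for 15.6% and 14.9% of all genes). Its summed forebrain excitatory markers were 1327 CPM, against 105 to 250.2 CPM in the other 9 libraries of Day 42, its striatal markers 546 against 194 to 323 CPM and its choroid plexus markers 163 against 18.9 to 39.0 CPM. Its hypothalamic markers were 573 against 848 to 1455 CPM. The part of this marker content in the receptor values was not tested, and the Grin2a result is given above without the library. Vehicle replicate 5 was the lowest of the 10 for 21 of the 41 members (and for 27.6% of all genes). Without it the number of members with an unadjusted p under 0.05 in edgeR also went from 3 to 1, or 2.44% beside 7.22% of all genes (Grm3, log2 FC 0.35, p = 0.00704), the log2 FC was 0.37 for Grin2a and 0.18 for Grin2b, and the median of the 41 moved from 0.02 to -0.03. Thalamic markers varied from 484 to 2160 CPM over the 10 libraries, with low and high values in both groups.

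**Figure D5:**
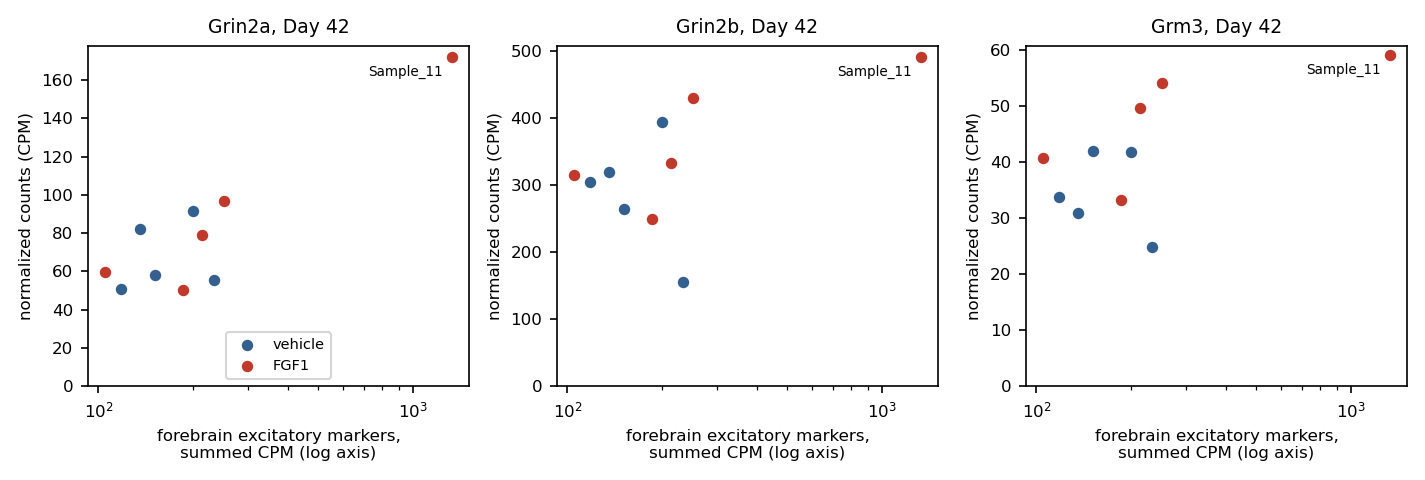
Level (CPM, vertical axis from 0) of Grin2a, Grin2b and Grm3 in the 10 mice of Day 42 against the summed level of 6 forebrain excitatory markers (CPM, logarithmic horizontal axis). Sample_11 lies alone at 1327 CPM of markers and is the highest mouse for all 3 genes, and the other 9 mice lie between 105 and 250.2 CPM.

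Levels differed far more between days than between treatments for several subunits, and since preparation changed with day these differences are a description only. Gabrb2 stood at 8.80 ± 1.3 CPM (SD, n = 4) in vehicle mice of Day 1, 242 ± 12 (n = 7) in non-diabetic-labelled vehicle mice of Day 5 and 192 ± 79.6 (n = 5) in those of Day 42. Gabrd stood at 1.26 ± 0.66, 18.9 ± 4.0 and 22.8 ± 14 CPM in the same groups, and Gabra4, which forms delta-containing receptors in the thalamus, at 49.9 ± 7.5, 114 ± 9.5 and 134 ± 59 CPM. Gabre went the other way, with 75.6 ± 11, 4.01 ± 0.78 and 27.8 ± 7.4 CPM. Summed thalamic markers ran from 374 to 614 CPM on Day 1, from 515 to 1180 CPM on Day 5 and from 484 to 2160 CPM on Day 42, and hypothalamic markers from 1022 to 1900.3, from 511 to 1033 and from 573 to 1455 CPM. In the order per kb, Gabra3 led the alpha subunits in both Day 1 groups and in none of the other 5.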

How the data were processed

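Messenger RNA of hypothalamus was sequenced from 47 mice. Reads were aligned by the authors with STAR, and the deposited values are whole-number counts for each gene, not normalized. Their notes name the build GRCh38, a human name, and the counting program, its strand setting and any gene filter are not given in the sources used here. The library kit marks strand. The lowest gene total in the table was 307 counts.

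TMM-scaled counts were fitted with edgeR 4.0.16 (R 4.3.3), 1 mean for each of 7 groups over all 47 libraries, with the quasi-likelihood F test and Benjamini-Hochberg adjustment over 14221 genes. A gene was called at an adjusted p under 0.05 and an absolute log2 FC above 0.5. DESeq2 1.42.0 and limma 3.58.1 served as alternatives, as did other scalings, filters on low counts, fits within a day, merged Day 5 vehicle groups, thinning to the lowest total and leaving out libraries. Count ratios (0.5 added) were compared with exact permutation tests over mice (SciPy 1.17.1, two-sided). Levels of members picked from these data, as log2(CPM + 0.5), were compared likewise within days (22 tests, adjusted together). Of these tests, Grm4 on Day 1 had an adjusted p of 0.0503. Gabbr1 and Grin2c on Day 5 against mice labelled non-diabetic had 0.00193 and 0.00367. This adjustment leaves out the members that were not picked. The steps were tested on simulated data.

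For each comparison up to 6 members per direction with the largest change among those called are given in full or, where fewer than 4 were called, those with an adjusted p under 0.05, and where there were none, the 4 with the smallest p. Members whose groups did not overlap are also named. The members, related genes, markers and motifs were chosen with earlier results of these data known. Replicate numbers follow deposit order. Genome positions and exon lengths are from GENCODE vM21 (GRCm38), in which 17 of the 41 genes share exon sequence with another gene, 11 on the other strand and 6 on the same strand. Promoters are from RefSeq (GRCm38.p6). Results for some of the 41 genes and their partners are counted but not reported by name here. The single-cell data were not used here. Depth limits the lowest genes most, above all in Day 1 FGF1 replicate 1 with 1243280 counts, and counting floors cover counting error only. Within groups no library was a copy of another.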

Additional observations from a re-analysis of the deposited data

Results flagged for a closer look

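Among 13 receptor genes described in full, 91 sets of 4 to 10 mice were examined for a mouse far from the rest of its group, and 6 were found; chance gives about 1 in 20. On Day 1, vehicle replicate 2 was high for Gria1 (729 CPM) and for Grik2 (174 CPM), and FGF1 replicate 1, the shallowest library, had 0.0 CPM of Gabrr2, where 3 counts would have been 2.44 CPM, so at its depth this 0 does not set the mouse apart. On Day 5, the mice labelled non-diabetic held a low value of Gria1 in replicate 1 (395 CPM), a low value of Grid1 in replicate 7 (96.8 CPM) and a high value of Grin2b in replicate 2 (446 CPM).

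The FGF1 effect differed between Day 5 and Day 1 by a test of the difference itself (edgeR, adjusted over all genes) for Gabrr2 (1.31 on the log2 scale, adjusted p = 0.00112), Grin2c (0.78, adjusted p = 0.00408) and Grm4 (-0.91, adjusted p = 0.0253). For Gabrr2 and Grin2c the Day 1 effect was negative and the Day 5 effect nearer to 0, and for Grm4 it was positive on Day 1.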

How the results depend on the processing

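With no threshold on the fold, 19 members were called on Day 1 (46.3%, beside 45.0% of all genes). Against vehicle mice labelled diabetic on Day 5 there were 3 (7.32%, beside 9.21%). For the difference of the FGF1 effect between Days 5 and 1 there were 11 (26.8%, beside 26.6%). That difference had 4 members called in edgeR and 7 with DESeq2 or with its size factors (17.1%, beside 16.1% of all genes with DESeq2). With all libraries thinned to the lowest total it had 1 (2.44%, beside 7.84% of all genes). Quantile normalisation with limma called 1 member (Gabrr2) on Day 5 against mice labelled diabetic (2.44%, beside 4.50% of all genes), where edgeR called 0. The cause was not tested. Leaving out each of the 4 vehicle mice of Day 1 in turn, 3 to 6 members were called on Day 1 and for that difference. On Day 1 these were 7.32% to 14.6% of the members, beside 16.4% to 21.7% of all genes. For that difference the share of members was also below that of all genes in each fit (7.32% beside 12.8% without vehicle replicate 2). Leaving out each of the 10 mice of Day 42, 0 members were called on Day 42 and for the difference between Days 42 and 5. Of all genes, at most 0.218% and 1.05% were called there. For named members on Day 1 the log2 FC without 1 vehicle mouse ran from -1.64 to -1.37 for Gabrr2, from -1.23 to -1.01 for Grin2c and from 0.56 to 0.96 for Grm4. On Day 42 it ran from 0.08 to 0.59 for Grin2a and from 0.35 to 0.55 for Grm3. Of the other comparisons of a single gene or ratio with an alternative, 340 kept direction and side of the threshold, 8 newly passed, 17 no longer passed and 0 changed direction. These covered only members picked for their change or p, and ratios with an exact permutation p under 0.05. A change of direction was thus unlikely from the start. Over all 41 members, 14 changed sign on Day 42 without Sample_11. No paired analysis was possible because the labels carry no replicate numbers.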

Other observations

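Summed over all 41 receptor genes, levels on Day 1 were 5652 to 6792 CPM in vehicle mice and 4608 to 5591 CPM in FGF1 mice, so the groups did not overlap. On Day 5 the sum was 7292 to 7979 CPM in FGF1 mice, 7176 to 8025 CPM in mice labelled non-diabetic and 6889 to 7954 CPM in those labelled diabetic, and on Day 42 it was 6579 to 8266 CPM in FGF1 mice and 5409 to 7929 CPM in vehicle mice. These sums overlapped between treatments on both later days.

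Of the 52 related genes, 1 passed in each comparison of FGF1 with vehicle on Day 5 (1.92%, beside 4.65% of all genes against mice labelled non-diabetic and 9.21% against mice labelled diabetic). Gabarapl1, a relative of the GABA-A receptor trafficking gene Gabarap, had a log2 FC of -0.13 against mice labelled non-diabetic (edgeR adjusted p = 0.0296), and Gabarap itself had 0.17 against mice labelled diabetic (adjusted p = 0.0179). On Day 42 none had an adjusted p under 0.05 in edgeR, 10 had an unadjusted p under 0.05 (19.2%, beside 5.46% of all genes), 3 did without Sample_11 (beside 2.24%), and with DESeq2 none passed the thresholds on adjusted p and fold together.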
